A study of Arabidopsis thaliana with 12 samples.

Results

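Seedlings of the Arabidopsis thaliana insertion line acn1-2 grown with 100 mM sucrose were compared with seedlings of its parental background Col-7 grown with the same sucrose. By the sample labels the comparison holds 6 of the series' 12 arrays, 3 of acn1-2 with sucrose and 3 of Col-7 with sucrose. The other 6 arrays are 3 of acn1-2 and 3 of Col-7 on the same medium without sucrose, and they are used here to ask whether a difference also stood without the sugar. acn1-2 carries a T-DNA insertion in AT3G16910 in the col-7 ecotype, and Col-7 is the stock without that insertion. All 4 groups were whole seedlings on agar with MS salts at pH 5.7, kept at 20 °C in continual light after 4 days of cold, dark stratification at 4 °C, and harvested at growth stage 0.70. The labels name 3 pools of 1000 seedlings. Whether a group's replicates came from separate cultures is not said, so the p-values cover the spread among these arrays alone, and that spread may be technical. The comparison rests on 1 insertion line.

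AT3G16910 encodes ACN1, a peroxisomal enzyme that joins free acetate to coenzyme A. Acetyl-CoA in the peroxisome enters the glyoxylate cycle, in which isocitrate lyase and malate synthase let an oilseed seedling turn stored oil into sugar and organic acids before it can photosynthesise. Late embryogenesis abundant (LEA) proteins, oleosins and seed storage proteins belong to an earlier phase. They build up while the seed matures and dries, and their transcripts normally decline as the seedling establishes. The mutant's own target gene has no probe set under its name in the annotation used here and was not analysed here.

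The arrays were Affymetrix ATH1 arrays, on which biotin-labelled cRNA of 1 sample binds sets of short probes, and values are intensities that were scaled before deposit to a common trimmed mean. Values under 14.4 were raised to that floor before log2 was taken, and a difference is given as the mean log2 value of acn1-2 minus that of Col-7. A probe set was called when its limma p, adjusted by Benjamini-Hochberg over all 13764 probe sets tested, was under 0.05. The median standard error of a difference was 0.13 on the log2 scale, and the number of arrays limits the precision. Median intensity was 41.6 to 42.9 on the acn1-2 arrays and 41.0 to 43.3 on the Col-7 arrays. The 3' to 5' signal ratios of the control transcripts for actin, GAPDH and ubiquitin did not separate the lines (two-sided exact permutation p 0.2 to 0.6, where 0.1 is the smallest that 3 against 3 arrays allow).

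Col-7 sucrose replicate 3 stood apart from the other arrays. Its log2 values correlated with those of Col-7 replicates 1 and 2 at r = 0.977 across probe sets, while acn1-2 replicates correlated with each other at 0.990 to 0.991 and Col-7 replicates 1 and 2 at 0.991. On this array all 4 measured shoot and photosynthesis markers of the 19 listed (PRK, RCA, LHCB4.1 and SBPASE) had their lowest value among the 6 arrays. Of the 3 measured root markers, the expansins EXPA7 and EXPA18 had their highest value on it. The third root marker did not, and the summed intensity of the 3, given below, was not highest on this array. The summed intensity of the 4 shoot markers was 6091 to 6427 on the acn1-2 arrays and 4996 to 7080 on the Col-7 arrays. That of the 3 measured root markers of the 13 listed was 2956 to 3329 in acn1-2 and 2876 to 2983 in Col-7. No marker was at 0, and none of the 4 endosperm loci listed had a probe set naming 1 gene. The part of these marker levels in the results was not tested, and values without it are given beside the results that rest on it. Fewer cells of a type and less RNA per cell cannot be told apart in whole seedlings.

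With sucrose the lines differed in a short list of genes, all lower in acn1-2 by the calls defined above. Of the 13764 probe sets tested 29 were called, which is 0.211%, and all 29 were lower in acn1-2. The differences were between -2.76 and -0.60 on the log2 scale, with a median of -1.59, and in each of the 29 every acn1-2 array lay below every Col-7 array. An unadjusted p under 0.05 was found for 2.56% of all probe sets with acn1-2 lower and 2.22% with acn1-2 higher. A gap alone was also common, since 7.11% of all probe sets tested had it with acn1-2 lower and 7.11% with acn1-2 higher. A gap together with at least a 2-fold difference was not: 27 probe sets had it with acn1-2 lower and 1 with acn1-2 higher. Without Col-7 sucrose replicate 3 the median of the 29 was -1.49, 25 of them were still called, and 43 probe sets were called in all (0.312%), 1 of them higher in acn1-2. The lowest limma adjusted p among higher probe sets was 0.0774 by the fit behind these 29 calls. When 1 array was left out, 0 to 3 probe sets were called higher, 3 of them without Col-7 untreated replicate 3 and 2 without Col-7 sucrose replicate 1. With array weights, which lower the part of arrays that stand apart, 164 probe sets were called, 34 of them higher. With equal weights, 3 were called higher with no filter, 2 with a replicate block and 2 on the 6 sucrose arrays alone.

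**Figure D1:**
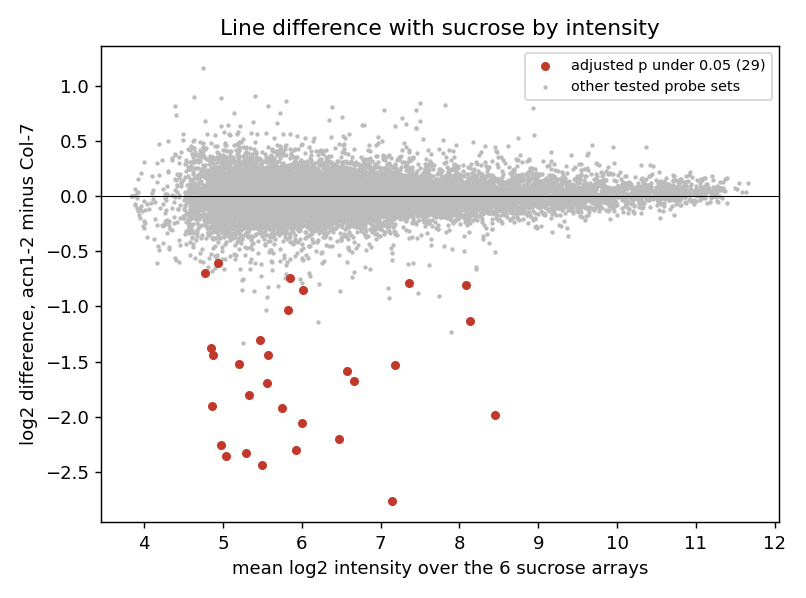
Each point is 1 of the 13764 probe sets tested. The horizontal axis is its mean log2 intensity over the 6 sucrose arrays and the vertical axis its log2 difference, acn1-2 minus Col-7. The 29 red points are the probe sets called, all below 0, while the grey points spread about evenly around 0.

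LEA genes led the list. Of the 13 members of the LEA and dehydrin list that were tested, 6 were called lower in acn1-2, by 2.89-fold to 6.77-fold. Of all probe sets tested 0.211% were called lower. Nothing is read from the list's share, since its members were chosen with earlier results known. AT3G15670, a LEA family gene, had intensities of 57.7, 50.7 and 55.0 on the acn1-2 arrays, against 333.8, 312.0 and 478.6 on the Col-7 arrays. Its difference was the largest of all probe sets tested (-2.76, SE 0.17, limma adjusted p 5.51e-06). The acn1-2 arrays lay close together and far under the lowest Col-7 array. LEA18, a group 4 LEA gene, had 12.8, 23.9 and 21.3 in acn1-2, against 79.2, 94.6 and 153.9 in Col-7 (-2.43, SE 0.23, adjusted p 0.000151). AtLEA4-1, of the same small family, had 14.7, 14.6 and 13.4 in acn1-2, against 71.3, 66.9 and 87.4 in Col-7 (-2.36, SE 0.15, adjusted p 5.51e-06). For both genes 1 of the 3 acn1-2 arrays was under the floor, so their fitted sizes depend on it. LEA4-5, another member of that family, had 83.7, 89.6 and 83.3 in acn1-2, against 226.6, 211.7 and 315.6 in Col-7 (-1.53, SE 0.17, adjusted p 0.000533).

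The remaining LEA genes called lower in acn1-2 were AT3G17520 and AT3G02480. AT3G17520 had 28.3, 31.2 and 23.1 in acn1-2, against 119.0, 128.0 and 158.9 in Col-7 (-2.30, SE 0.17, adjusted p 2.19e-05). AT3G02480 had 152.8, 201.3 and 174.7 in acn1-2, against 622.1, 663.0 and 811.7 in Col-7 (-1.99, SE 0.16, adjusted p 4.45e-05). In all 6 LEA genes Col-7 replicate 3 was the highest array, and all 6 were still called without it. LEA18, AtLEA4-1 and AT3G17520 passed the intensity filter, a mean of at least 29.1 over the 12 arrays, through Col-7 alone. Their acn1-2 means were under 29.1 with and without sucrose, so they could be tested only because Col-7 was higher.

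The other 7 tested members of the same list were not called. They include the dehydrin COR47, which vegetative tissue makes in the cold and which had 1064, 1137 and 1127 in acn1-2, against 1023, 997 and 1080 in Col-7 (0.10). LTI30, another cold-induced dehydrin, differed by 0.06, COR15B, a chloroplast-targeted cold-regulated protein, by 0.02, and AT2G46140 by -0.00. AT2G23120 differed by 0.11. The dehydrins AT1G54410 and AT4G38410 had the most positive differences, 0.44 and 0.36, neither of them called. The acn1-2 arrays of AT1G54410 had 1515, 1592 and 1517, all above the 1265, 1117 and 1035 of Col-7. Those of AT4G38410 had 146.9, 150.9 and 150.7, against 87.1, 91.9 and 196.1 in Col-7, so its groups overlapped through Col-7 replicate 3. Among the list's tested members the 6 called stood at -2.76 to -1.53 and the rest at -0.00 to 0.44. Members too dim to be tested, described below, are not in these ranges. The list's median was -0.00 (0.04 without Col-7 replicate 3), where that of all probe sets tested was 0.00.

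**Figure D2:**
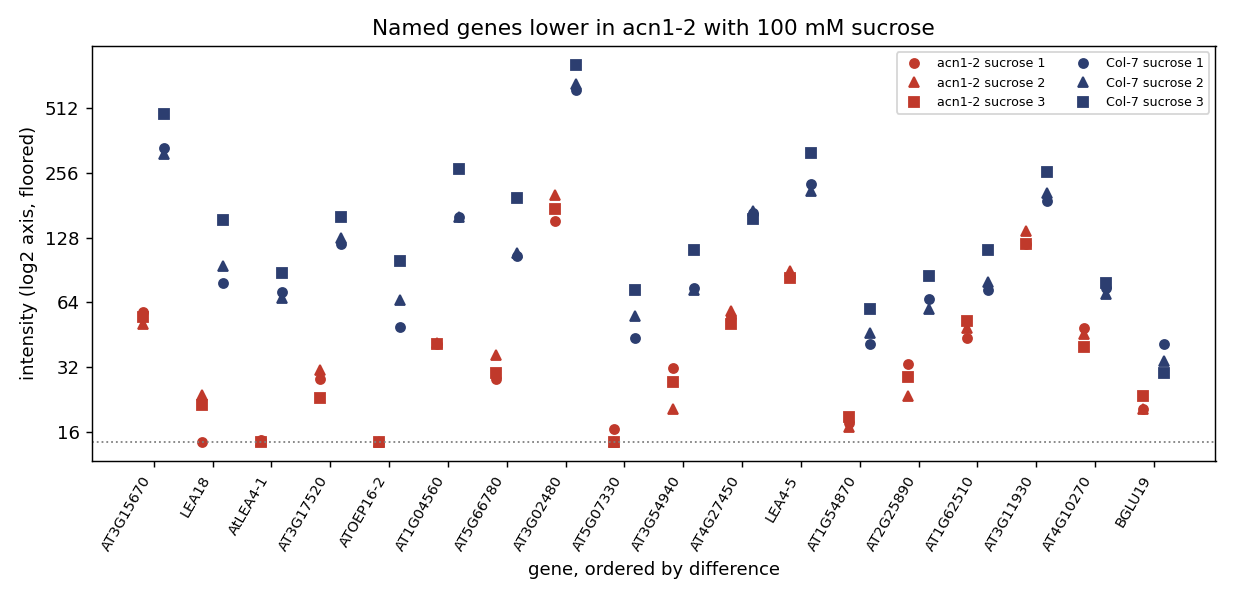
Intensities after the floor, on a log2 axis, of the 18 called probe sets that name 1 gene, ordered by their difference. Red marks are the 3 acn1-2 arrays and blue marks the 3 Col-7 arrays, with the floor of 14.4 dotted. The red marks lie below the blue ones in each gene, and the blue square, Col-7 replicate 3, is the top mark in 16 of the 18.

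Some genes of the seed's membranes and vacuole were lower in acn1-2 as well. Of 8 tested members of the seed storage, vacuole and membrane list 3 were called lower and 0 were called higher. Of all probe sets tested 0.211% were called lower. All 8 had a difference below 0, where 49.8% of all probe sets tested did. Their median was -0.59 (-0.44 without Col-7 replicate 3). Nothing is read from these shares, since the list was chosen with earlier results known. A member could also pass the intensity filter through Col-7 alone. ATOEP16-2 did so, with acn1-2 means of 8.5 with sucrose and 2.8 without it. AT3G54940 did too, with acn1-2 means of 26.6 and 11.8, where the filter asked for 29.1. ATOEP16-2, the seed form of a channel protein of the outer plastid envelope, had 9.7, 5.9 and 10.0 in acn1-2, all under the floor, against 49.5, 66.0 and 99.7 in Col-7. It was therefore at least 4.78-fold lower (adjusted p 0.000151). AT1G04560, an AWPM-19-like membrane protein of a family found in maturing seeds, had 41.0, 41.7 and 41.0 in acn1-2, against 160.4, 159.1 and 267.2 in Col-7 (-2.20, SE 0.20, adjusted p 0.000141). AT3G54940, a papain-type cysteine protease, had 31.7, 20.6 and 27.5 in acn1-2, against 74.4, 72.9 and 111.7 in Col-7 (-1.69, SE 0.21, adjusted p 0.0024). All 3 were still called without Col-7 replicate 3.

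The vacuolar processing enzymes, which cut storage proteins in the seed vacuole, were not called. DELTA-VPE had 61.3, 62.6 and 61.1 in acn1-2, against 81.7, 90.0 and 113.1 in Col-7 (-0.61, SE 0.13, adjusted p 0.14). BETA-VPE had 142.1, 149.5 and 141.5 in acn1-2, against 180.3, 185.0 and 199.8 in Col-7 (-0.38, adjusted p 0.471). In both the groups did not overlap. PAP85, a vicilin-like storage protein, had a difference of -0.57 (adjusted p 0.544). The AWPM-19-like genes AT1G29520 and AT5G18970, relatives of AT1G04560, stood at -0.04 and -0.01.

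Among oil body and lipid droplet genes, 1 of 7 tested members was called, against 0.211% of all probe sets tested. This list too was chosen with earlier results known. AT2G25890, an oleosin that coats oil bodies, had 33.1, 23.5 and 28.9 in acn1-2, against 66.4, 59.6 and 85.2 in Col-7 (-1.30, SE 0.22, adjusted p 0.0264). It too passed the intensity filter through Col-7 alone, with acn1-2 means of 28.5 with sucrose and 17.5 without it. Its groups did not overlap, but the call ended without Col-7 replicate 3 (adjusted p 0.0927) or Col-7 replicate 1 (0.0889) and without acn1-2 sucrose replicate 1 (0.0549), 2 (0.185) or 3 (0.11). The oleosin AT3G01570 had 55.1, 44.4 and 49.4 in acn1-2, against 96.4, 91.7 and 147.8 in Col-7, a difference of -1.14 that was not called (adjusted p 0.351). OLEO3, another oleosin gene, had 48.6, 67.6 and 70.4 in acn1-2, against 68.5, 71.3 and 112.2 in Col-7 (-0.41), and its groups overlapped. SDP1, the lipase that opens oil breakdown, stood at -0.18, and AT1G67360 and AT3G05500, lipid droplet proteins of the rubber elongation factor family, at -0.02 and -0.12. The list's median was -0.18, and -0.11 without Col-7 replicate 3.

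AT4G27450 had the smallest standard error among the 23 probe sets called at least 2-fold lower. It encodes an aluminium-induced-like protein and belongs to the sugar starvation list, genes whose transcripts are known to rise when carbon runs short. It had 55.0, 58.5 and 50.9 in acn1-2, against 166.5, 170.4 and 157.0 in Col-7 (-1.59, SE 0.10, adjusted p 5.87e-06). In this gene Col-7 replicate 3 was the lowest Col-7 array, and the difference without it was -1.62. The other 8 tested members of the list were not called and stood at -0.17 to 0.39, with a list median of 0.05, with or without Col-7 replicate 3. They include its relatives AILP1 (0.05) and AT3G15450 (0.21), the leucine-breakdown genes MCCA (0.39), MCCB (0.17) and IVD (0.01), and AKINBETA1, a subunit of the SnRK1 energy-sensing kinase (-0.04).

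The 7 other named genes called lower in acn1-2 belong to families of various roles. AT5G66780 had 28.1, 36.7 and 30.0 in acn1-2, against 105.4, 108.3 and 196.3 in Col-7 (-2.06, SE 0.24, adjusted p 0.00114). AT5G07330 had 16.5, 13.3 and 10.0 in acn1-2, against 44.0, 55.3 and 73.5 in Col-7 (-1.90, SE 0.18, adjusted p 0.000151). The floor sets its size in part, since 2 of its 3 acn1-2 arrays were under it. AT1G54870, a dehydrogenase of the Rossmann-fold class, had 17.7, 17 and 18.9 in acn1-2, against 41.1, 46.1 and 59.7 in Col-7 (-1.44, SE 0.16, adjusted p 0.000594). AT4G10270, of the wound-responsive family, had 48.6, 45.5 and 39.8 in acn1-2, against 74.6, 70.2 and 78.9 in Col-7 (-0.74, SE 0.10, adjusted p 0.00506). These 4 genes were still called when any 1 of the 12 arrays was left out. AT5G07330 and AT1G54870 passed the intensity filter through Col-7 alone, with acn1-2 means under 29.1 with and without sucrose.

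The last 3 named genes lay near the threshold. AT3G11930, of the universal stress protein family, had 119.8, 137.3 and 119.6 in acn1-2, against 189.9, 206.4 and 257.1 in Col-7 (-0.79, SE 0.12, adjusted p 0.0164). BGLU19, a beta-glucosidase, had 20.6, 20.4 and 23.6 in acn1-2, against 41.1, 34.1 and 30.2 in Col-7 (-0.70, SE 0.12, adjusted p 0.038). AT1G62510, of the superfamily that holds lipid transfer proteins and 2S albumins, had 43.6, 48.5 and 52.5 in acn1-2, against 72.9, 79.3 and 112.4 in Col-7 (-0.85, SE 0.15, adjusted p 0.0493). The groups did not overlap in any of the 3, yet leaving out 1 array ended the call of AT3G11930 in 3 of 12 cases, of BGLU19 in 9 and of AT1G62510 in 10. Without acn1-2 sucrose replicate 1 the adjusted p was 0.114 for AT3G11930, 0.232 for BGLU19 and 0.302 for AT1G62510. Each of the 3 was also lost without acn1-2 replicate 3 (0.11, 0.0639 and 0.11 in that order) and without Col-7 sucrose replicate 2 (0.0597, 0.143 and 0.101). BGLU19 was lost as well without Col-7 sucrose replicate 1 (0.164), and AT1G62510 without Col-7 sucrose replicate 3 (0.0636), when its difference was -0.66. BGLU19 and AT1G62510 were lost too without acn1-2 replicate 2 (0.238 and 0.206), and AT1G62510 without 5 of the 6 arrays grown without sucrose, BGLU19 without 4 of them.

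The other 11 probe sets called name no gene in the annotation used here, with differences of -2.33 to -0.60. Of the 29 calls 20 stood when any 1 of the 12 arrays was left out, 14 of them with a gene name. Over the chromosomes the named calls were 4 of the 1872 tested probe sets naming 1 gene on chromosome 1, 2 of 1096 on chromosome 2, 6 of 1487 on chromosome 3, which holds the insertion, 3 of 1094 on chromosome 4 and 3 of 1769 on chromosome 5. The distance of the 6 on chromosome 3 from the insertion was not tested.

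**Figure D3:**
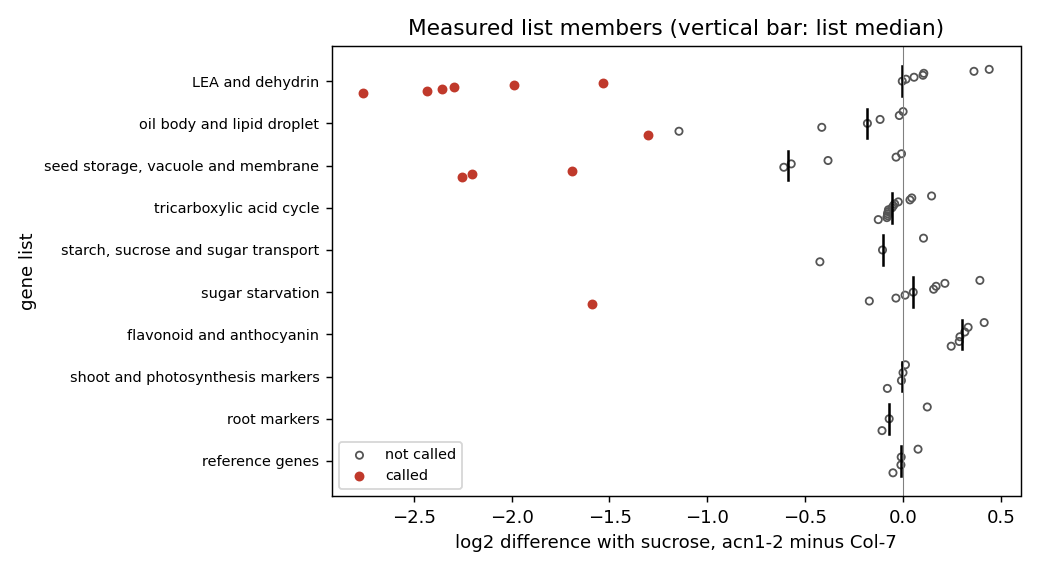
Log2 differences with sucrose, acn1-2 minus Col-7, of the tested members of each list with at least 3 tested members. Filled red points are called, open points are not, and the vertical bar is the list's median. Red points appear in the LEA, oil body, seed storage and sugar starvation lists, and the open points of those lists reach 0 or beyond, except that the seed storage list ends at -0.01.

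No called difference was found in central carbon metabolism, of which only part was measured. None of the 13 tested genes of the tricarboxylic acid cycle was called by limma, none had an unadjusted p under 0.05, and they stood between -0.13 (SDH1-1, a subunit of succinate dehydrogenase) and 0.15 (AT5G65750, a 2-oxoglutarate dehydrogenase), with a median of -0.06 (-0.01 without Col-7 replicate 3). In the glyoxylate cycle and gluconeogenesis list only ICL and PPDK were measured, and both stood at 0.01, with a median of 0.06 without Col-7 replicate 3. AIM1, the 1 measured enzyme of fatty acid beta-oxidation, stood at -0.06. APL3, a subunit of the enzyme that opens starch synthesis, had 227.5, 240.1 and 216.9 in acn1-2, against 235.6, 224.4 and 278.4 in Col-7 (-0.10), and the 4 reference genes had a median of -0.01 (0.05 without Col-7 replicate 3). Small differences in single genes were not detectable at the median standard error of 0.13.

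No gene was called higher in acn1-2. Of the 26 flavonoid and anthocyanin genes listed, 6 had a probe set naming 1 gene, and all 6 were tested. They had a positive difference, 0.25 to 0.42 with a median of 0.30. In all 6 every acn1-2 array lay above every Col-7 array, against 7.11% of all probe sets tested. No conclusion is drawn from that share, since this list was also chosen with earlier results known. AT5MAT, the anthocyanin malonyltransferase, had 192.6, 181.5 and 162.1 in acn1-2, against 128.3, 137.8 and 135.1 in Col-7 (0.42, SE 0.09, adjusted p 0.165), and it was called with array weights (adjusted p 0.0154). DFR, dihydroflavonol reductase, had 801.2, 840.7 and 837.7 in acn1-2, against 693.5, 717.7 and 623.2 in Col-7 (0.29, SE 0.15). CHIL, a chalcone isomerase-like protein that aids the first steps of the pathway, stood at 0.29, and the anthocyanin and flavonol glycosyltransferases AT4G14090, UGT78D2 and UF3GT at 0.33, 0.32 and 0.25. Summed over the 6 genes, intensity was 3196 to 3487 on the acn1-2 arrays and 2602 to 2773 on the Col-7 arrays. Without Col-7 replicate 3 the median was 0.28. Without sucrose the same 6 genes had a median of -0.26.

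Among probe sets that name 1 gene, the larger differences above 0 were mostly plastid-encoded. The largest of all probe sets tested, 1.16, belongs to a probe set that names no gene. Of the 12 largest among named genes whose groups did not overlap and whose unadjusted p was under 0.05, 8 are plastid genes: petD (0.90), atpI (0.89), ndhG (0.86), psbT (0.84), psbB (0.82), psbA (0.79), rps14 (0.75) and psbN (0.71). They encode parts of the cytochrome b6f complex, the ATP synthase, the NDH complex, photosystem II and the plastid ribosome. psbA, for the D1 protein of photosystem II, had 637.1, 637.5 and 652.4 in acn1-2, against 386.0, 496.9 and 265.7 in Col-7 (SE 0.25, adjusted p 0.605). psbB, for the antenna protein CP47, had 284.1, 312.9 and 300.2 in acn1-2, against 223.7, 244.1 and 88.6 in Col-7 (SE 0.31, adjusted p 0.848). The groups did not overlap, but Col-7 replicate 3 lay far under the other Col-7 arrays, and without it the differences were 0.55 for psbA and 0.35 for psbB.

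This held for the plastid genes as a set, which was chosen after these values were seen. Of 68 tested plastid-encoded genes 0 were called, 61 had a difference above 0, where 50.2% of all probe sets tested did, and the median was 0.21. Col-7 replicate 3 was the lowest Col-7 array in 64 of the 68, or 94.1%, against 41.9% of all probe sets tested. Without that array 51 of 68 were above 0 and the median was 0.08. rbcL, the large subunit of Rubisco, stood at 0.53 with all arrays and 0.43 without it, and psaA, of photosystem I, at 0.39 and 0.03.

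The remaining 4 of those 12 are AT5G26200, AT5G05250, BGLU28 and AT2G07751. AT5G26200, of the mitochondrial carrier family, had 30.3, 27.3 and 26.0 in acn1-2, against 11.4, 19.1 and 8.2 in Col-7 (0.81, SE 0.16, adjusted p 0.0774). Its size depends on the floor, since 2 of its 3 Col-7 arrays were under it. AT5G05250 had 68.4, 61.4 and 59.6 in acn1-2, against 39.7, 35.1 and 33.0 in Col-7 (0.81, adjusted p 0.268). BGLU28, a beta-glucosidase, had 114.9, 105.8 and 110.1 in acn1-2, against 89.7, 93.3 and 30.1 in Col-7, and its 0.80 became 0.27 without Col-7 replicate 3. AT2G07751 stood at 0.75.

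**Figure D4:**
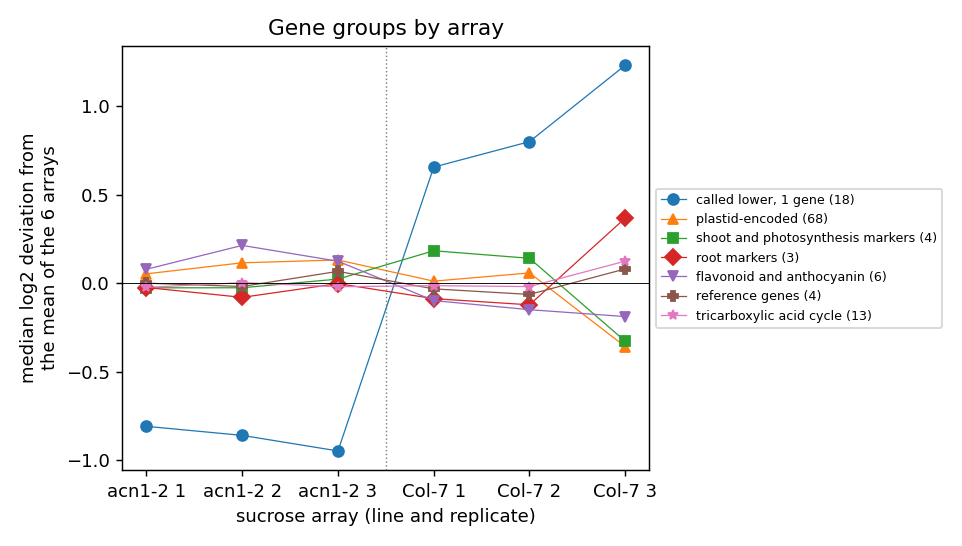
Median log2 deviation of each gene group from the mean of the 6 sucrose arrays, by array, with the number of genes in brackets. The 18 named genes called stand at -0.81 to -0.95 on the acn1-2 arrays and at 0.66, 0.80 and 1.23 on Col-7 replicates 1, 2 and 3. Plastid-encoded genes and shoot markers drop to -0.36 and -0.33 on Col-7 replicate 3, where root markers stand at 0.37.

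Col-7 replicate 3 was the highest Col-7 array in 16 of the 18 named genes called, against 38.4% of all probe sets tested. The median deviation of the 18 was -0.81, -0.86 and -0.95 on the acn1-2 arrays, against 0.66, 0.80 and 1.23 on the Col-7 arrays. The lines were apart on Col-7 replicates 1 and 2 as well. The 18 were called on these same arrays, so nothing is read from that. Without replicate 3 the median difference of the 18 was -1.67, against -1.80 with it.

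Genes with differences below 0 that missed the threshold included a peptidase, a peroxidase and a defensin gene. AT1G65090 had 32.3, 25.5 and 16.9 in acn1-2, against 48.1, 55.6 and 82.4 in Col-7 (-1.33, SE 0.27, adjusted p 0.107). The serine carboxypeptidase-like gene scpl44 had 32.0, 26.0 and 42.0 in acn1-2, against 55.3, 53.6 and 100.6 in Col-7 (-1.03, adjusted p 0.25). Both had their highest value on Col-7 replicate 3. AT5G64120, a peroxidase, went the other way: it had 104.7, 103.2 and 98.9 in acn1-2, against 212.5, 197.9 and 142.7 in Col-7 (-0.83, SE 0.16, adjusted p 0.0771). Without Col-7 replicate 3 it stood at -1.0 and was called (adjusted p 0.0154). Fes1B, a nucleotide exchange factor of Hsp70 chaperones, had 40.0, 41.3 and 50.0 in acn1-2, against 61.8, 76.3 and 76.1 in Col-7 (-0.71, adjusted p 0.0603). AT5G66985 stood at -0.91, the GDSL lipase AT5G14450 at -0.91, the plant defensin LCR67 at -0.70, AT2G38905 at -0.78, AT3G03790 at -0.76, AT1G14330 at -0.74 and AT5G20790 at -0.72, and AT3G01570 is given with the oleosins above.

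Many seed-type genes were too dim to be tested. Of the 3 seed-type lists 20 members with a probe set fell under the intensity filter, and 16 of these had all 3 acn1-2 arrays at or under the floor. In 6 of the 16 all 3 Col-7 arrays were above it. AT4G36600, a LEA family gene, had 9.7, 10.5 and 13.9 in acn1-2, against 36.7, 38.1 and 62.6 in Col-7. AT2G21490, a dehydrin, had 9.3, 12.1 and 12.2 in acn1-2, against 47.6, 36.8 and 64.3 in Col-7. AT5G44310, a LEA family gene, had 0.6, 1.1 and 1.0 in acn1-2, against 16.0, 15.3 and 22.7 in Col-7. AT1G72100, AT3G53040 and AT2G23110 showed the same order of the lines. In 7 of the 20 members all 6 arrays were at or under the floor, so nothing can be said of them. With no filter AT4G36600 and AT2G21490 were called lower. Their fitted sizes are set by the floor and are not given.

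The untreated arrays showed which of these differences also stood without sugar. Without sucrose 75 probe sets were called (0.545%), 58 of them lower in acn1-2. Of the 29 called with sucrose, 18 were also called lower without it, which is 62.1% of the sucrose list and 31.0% of the untreated one. A difference below 0 without sucrose was found for 26 of the 29, one above 0 for AT1G62510 (0.31) and 261862_at (0.13), and 1 probe set had 0.00. Among the 18 named genes the untreated differences had a median of -1.36.

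**Figure D5:**
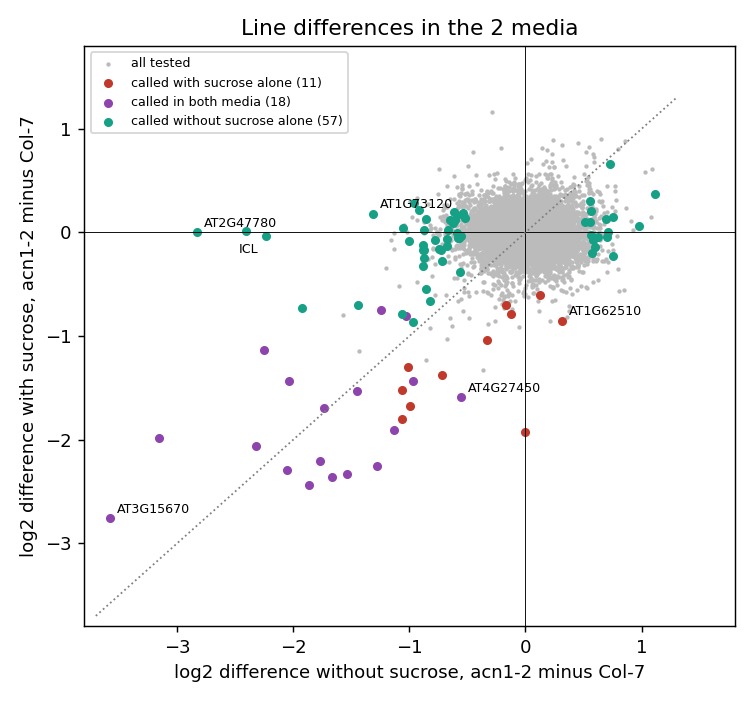
Log2 difference between the lines, acn1-2 minus Col-7, with sucrose on the vertical axis and without it on the horizontal axis, for all probe sets tested. Purple points (18) are called in both media, red points (11) with sucrose alone and green points (57) without it alone, and the dotted line marks equal differences. ICL and AT2G47780 lie far left at a vertical value near 0, while AT4G27450 lies further from 0 with sucrose than without.

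A change in the size of the line difference with the medium was called in few of these genes. The interaction, the line difference with sucrose minus that without, was called by limma for 8 probe sets of all tested (0.0581%). When 1 array was left out the count was 4 to 19, with 19 without Col-7 sucrose replicate 3, and it was 18 with trend and robust moderation and 22 with array weights. Of the 8, 2 are among the 29: AT4G27450 and 248352_at, which names no gene. AT4G27450 had 54.8 ± 3.80 in acn1-2 and 164.6 ± 6.89 in Col-7 with sucrose, and 112.5 ± 4.48 in acn1-2 and 165.9 ± 19.3 in Col-7 without it (SD, n = 3 each). Its level in Col-7 was thus nearly equal in the media, while the acn1-2 arrays were lower with sucrose, and the interaction was -1.03 (SE 0.15, adjusted p 0.0189). That call ended in 8 of the 12 fits that left out 1 array, up to an adjusted p of 0.0971 without Col-7 sucrose replicate 2. The probe set 248352_at had 27.9 ± 5.81 in acn1-2 and 107.0 ± 27.4 in Col-7 with sucrose, and in both lines all untreated arrays were at or under the floor. Its interaction of -1.92 (SE 0.26, adjusted p 0.0149) depends on that floor. The remaining 27 of the 29 had no called interaction, which does not show that their differences were equal in the media. Uncalled interactions reached 1.17 for AT3G02480 and -1.16 for AT1G62510. In AT3G15670, LEA18, AT3G17520, ATOEP16-2, 260716_at and 253416_at all 3 untreated acn1-2 arrays were at or under the floor. Their untreated differences and interactions therefore depend on it.

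Genes called without sucrose with at least a 2-fold difference took several courses with it. There were 18 such named genes, of which 12 were also called with sucrose and 6 were not. ICL, isocitrate lyase, had 2396, 2346 and 2543 in acn1-2 with sucrose, against 2333, 2269 and 2633 in Col-7 (0.01, where the untreated difference was -2.41). AT2G47780, of the lipid-droplet-associated rubber elongation factor family, had 1219, 1190 and 1250 in acn1-2 with sucrose, against 1157, 1097 and 1427 in Col-7 (0.00, untreated -2.83). AT1G73120 had 984.5, 891.3 and 1002.5 in acn1-2 with sucrose, against 905.0, 860.2 and 775.2 in Col-7 (0.18, untreated -1.32). In ICL and AT2G47780 the groups overlapped with sucrose, and in AT1G73120 only acn1-2 replicate 2 lay under a Col-7 array. The interaction was called for all 3, at 2.42 for ICL (adjusted p 0.00222), 2.83 for AT2G47780 (0.000686) and 1.50 for AT1G73120 (0.0189). That of AT1G73120 ended in 6 of the 12 fits that left out 1 array, up to an adjusted p of 0.0882 without acn1-2 sucrose replicate 1, with no filter (0.0933) and without both arrays that stand apart, Col-7 sucrose replicate 3 and acn1-2 untreated replicate 3 (0.0595). The GDSL lipase AT3G48460 stood at -0.09 with sucrose and -1.01 without (interaction adjusted p 0.279), and LCR67 and AT2G38905 at -0.70 and -0.78, against -1.44 and -1.07 without sucrose.

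In most of the named genes acn1-2 seedlings with sucrose had lower levels than Col-7 seedlings without it. In 16 of the 18 named genes called, all 3 acn1-2 arrays with sucrose lay below all 3 Col-7 arrays without it, a pattern found in 31.0% of all probe sets tested. The 18 were called on the same acn1-2 arrays, so nothing is read from that share. The 2 exceptions were LEA4-5 and AT4G10270. LEA4-5 had 85.5 ± 3.53 in acn1-2 with sucrose, against 100.8 ± 19.0 in untreated Col-7 (SD, n = 3 each). AT3G15670 had 54.5 ± 3.53 in acn1-2 with sucrose, against 174.7 ± 34.1 in untreated Col-7. AT3G02480 had 176.3 ± 24.3 in acn1-2 with sucrose, against 289.0 ± 26.2 in untreated Col-7. These values were higher with sucrose than without in both lines: AT3G02480 stood at 176.3 with sucrose and 32.9 ± 7.45 without it in acn1-2, and at 698.9 ± 99.8 with sucrose and 289.0 without it in Col-7. Of the 18 named genes 14 had a higher mean log2 value with sucrose in Col-7 and 10 of these also in acn1-2. AT1G62510 and AT3G11930 were far lower with sucrose in both lines, AT1G62510 at 48.2 with sucrose and 629.2 without it in acn1-2, and at 88.2 with sucrose and 506.6 without it in Col-7.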

How the data were processed

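Whole-seedling RNA was measured on 12 one-sample ATH1 arrays, and groups and replicate numbers came from the sample titles. The deposited table holds 1 linear intensity per probe set and array, which the authors had scaled so that the mean after trimming 2% is about 100.0 on every array, as the values show. The sources used here do not name the probe summarisation method.

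Of 22810 probe sets 64 controls were left out. Of the other 22746, 13513 name 1 gene, 503 several and 8730 none, by the platform annotation joined through gene identifiers to RefSeq locus names. The floor was the pooled 25th percentile (14.4), and the 13764 probe sets whose mean over 12 arrays reached the 40th percentile (29.1) were tested. On the sucrose arrays 0.312% of tested values were at or under it. No normalization was added. One limma 3.58.1 model in R 4.3.3 fitted the 4 group means (8 residual degrees of freedom, eBayes without trend), two-sided, with Benjamini-Hochberg adjustment. Tables and figures used Python 3.11.15, pandas 2.3.3 and matplotlib 3.10.9.

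Named genes were all called probe sets naming 1 gene, the 12 largest uncalled differences each way with groups apart and an unadjusted p under 0.05, genes called and at least 2-fold apart without sucrose, and list members. The 17 lists hold 309 loci, of which 96 had a probe set naming 1 gene and 74 were tested, and their members cannot stand for the rest. The seed and abscisic acid regulator list, the cold and drought list, the endosperm list and the cell cycle list had 0 such probe sets, and 1 heat shock gene was tested (-0.25). Members and lists were chosen with earlier results of these data known. The lists are described by counts and medians, with no set test. Promoter motifs were not analysed here.

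On simulated arrays of this comparison, with 50 of 13764 probe sets changed at each size, the fit recovered 42% at a log2 change of 0.5, 80% at 1 and at -1 and 96% at -2, and called 13 of 13564 unchanged ones. More probe sets were changed in the simulation than the 29 called here. That eases the Benjamini-Hochberg threshold, so recovery in the real comparison may be lower. The alternatives tried were another normalization, filters, floors, variance models, array weights, arrays in the fit, a replicate block, the scanner background as a covariate, and leaving out arrays.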

Additional observations from a re-analysis of the deposited data

Results flagged for a closer look

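The line difference with sucrose was not the same as that without sucrose in 5 probe sets described here, by limma's test of the interaction over all probe sets tested. The interaction is the log2 difference with sucrose minus the one without. It was 2.83 for AT2G47780, of the rubber elongation factor family, and 2.42 for ICL, which encodes isocitrate lyase. Both were called under all 23 alternatives, with adjusted p up to 0.0269 for AT2G47780 and up to 0.038 for ICL. For AT1G73120 it was 1.50, for the aluminium-induced-like gene AT4G27450 -1.03, and for the probe set 248352_at, which names no gene, -1.92.

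These last 3 were less firm. AT1G73120 and AT4G27450 were each called in 14 of 23 alternatives, with adjusted p up to 0.0933 and 0.0971, and 248352_at in 14 of 22, with adjusted p up to 0.828 where no floor was set. Leaving out Col-7 sucrose replicate 1 or 2, acn1-2 sucrose replicate 3 or acn1-2 untreated replicate 1 ended the call in all 3 (adjusted p 0.0509 to 0.0971). The call of AT4G27450 also ended without acn1-2 sucrose replicate 1, acn1-2 untreated replicate 2 or Col-7 untreated replicate 1 or 2. That of AT1G73120 also ended without acn1-2 sucrose replicate 1 or acn1-2 untreated replicate 3, and that of 248352_at without acn1-2 untreated replicate 2. No filter ended the calls of AT1G73120 (0.0933) and 248352_at (0.0937), a pseudocount that of 248352_at (0.15), and leaving out both arrays that stand apart that of AT1G73120 (0.0595). The direction held in every alternative for all 5.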

How the results depend on the processing

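No named call turned to the other direction in any alternative run, and 20 of the 29 calls stood in all 12 fits that left out 1 array. Those fits called 21 to 43 probe sets, 14 to 19 lower in both media, and 0 to 2 interactions among the 29. The fewest, 21, came without acn1-2 sucrose replicate 1 or 2. In place of 29, 10 were called with the stricter filter (mean at least 62.3), which tests only 11 of the 29 and leaves 8 lower in both media, and 17 without a floor. With array weights, which gave Col-7 sucrose replicate 3 a weight of 0.327, 164 were called, 34 of them higher, and all 29 stayed. Without Col-7 sucrose replicate 3 and acn1-2 untreated replicate 3 together 63 were called, 1 higher, again with all 29. The cause of these shifts was not tested, beyond the fewer probe sets of the stricter filter. Called interactions among the 29 were 1 with no filter, 1 with the stricter filter, 1 with a pseudocount of 16, 4 with trend and robust moderation and 4 with array weights. With no filter 28 were called over 22746 probe sets, 16 of the 29 among them. Quantile normalization gave 26, the filter on the sucrose arrays 35, the pseudocount 26, trend and robust moderation 30, the scanner background as a covariate 27 and the 6 sucrose arrays alone 28, 2 of them higher. Named calls lost in some alternatives other than left-out arrays were AT1G62510, BGLU19, AT2G25890, AT3G11930 and AT3G54940, and, where no floor was set, AT3G17520 (adjusted p 0.428), AT5G66780 (0.517) and AT4G10270 (0.152).

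The replicate numbers did not pair the arrays: deviations of same-numbered acn1-2 and Col-7 sucrose arrays correlated at 0.00, -0.03 and 0.04. The fit with a replicate block called 34 probe sets, 2 higher, including 28 of the 29, with 18 lower in both media. Under the block the interactions of AT4G27450 and AT1G73120 were not called (adjusted p 0.0772 each). Near the floor, signal over background limits every size given. The planned count of promoter motifs was not run.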

Other observations

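Without Col-7 sucrose replicate 3, 8 named genes were called that are not among the 29, and they were chosen after their values were seen. With acn1-2 lower were AT5G64120 (-1.0), AT3G46280 (-0.75), AT1G55960 (-0.74), AT1G66100 (-0.73), AT1G65230 (-0.72), AT1G65370 (-0.69) and AT5G35170 (-0.59). AT1G50060 was the 1 called with acn1-2 higher (0.58). With no filter 9 named genes were gained, 6 lower and 3 higher. The lower ones include AT4G36700, a cupin-type seed storage protein gene, which had 17.1, 11.2 and 12.9 on the acn1-2 arrays, against 60.7, 51.5 and 44.7 on the Col-7 arrays. With 2 of its 3 acn1-2 arrays under the floor, the size of its difference is not given. The higher ones were AT4G21780 (0.18) and AT2G37420 (0.26), both under the intensity filter used above, and AT1G01630 (0.41). AT1G01630 had passed that filter, and it was also called higher with array weights (0.36, limma adjusted p 0.0188).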
